A study of Mus musculus with 4 samples.

Results

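The 40 genes described here encode subunits of 2 families of nucleosome remodelling complexes, BAF with 28 genes and NuRD with 12. They were chosen by symbol from the 24421 genes in the deposited tables, by a rule that used no measured value, though with earlier results of these data known. All 40 had a count in at least 1 library. RNA came from the mouse embryonic stem cell (ESC) line R1 in 2 states, Undiff and Day4, with 2 separately grown and treated replicates of each. Day4 cells formed embryoid bodies for 4 days without leukaemia inhibitory factor (LIF), the cytokine that keeps mouse ESCs undifferentiated, and were then kept for 4 days with retinoic acid (RA), an inducer of neural differentiation. The RA dose is 2 µM in the study's methods and 2 mM in the sample labels. Undiff is described as ESCs grown with LIF in the methods, but as embryoid bodies before RA in the labels. No Day4 sample without RA was among these libraries, so time without LIF and RA cannot be told apart, and every library came from the same cell line.

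BAF complexes, the mammalian relatives of yeast SWI/SNF, use an ATPase motor to slide or eject nucleosomes and generally open chromatin. NuRD joins a different remodelling ATPase to histone deacetylases and is best known for repressing and tuning genes. Both are built from interchangeable paralogues, so that cells of different types hold complexes of different make-up. In the nervous system, BAF in progenitors is known to exchange several subunits for neuronal paralogues as cells leave the cell cycle. ESCs are known for a BAF form that favours Smarca4, Smarcc1, Smarcd1, Arid1a and Actl6a.

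Counts on genes ranged from 32099074 to 47730944 per library. The 40 genes took 0.467% and 0.481% of these counts in the Undiff libraries and 0.625% and 0.628% in the Day4 libraries. All 10 pluripotency markers fell in Day4, from a summed 4901 and 4904 CPM (counts scaled to library size) to 27.4 and 21.5 CPM. Markers are counted here as risen or fallen on the adjusted p alone, at most 0.05 in the edgeR test given below. The markers of neural cells moved in both directions. Of 9 neural progenitor genes 4 rose and 3 fell, and of 10 neuron genes 2 rose (Dcx and Rbfox3) and 7 fell, with the summed neuron level going from 322 and 323 to 97.3 and 94.7 CPM. All 7 endoderm markers rose, from 6.93 and 8.29 to 563 and 553 CPM. Among 8 heart and smooth muscle genes 3 rose and 1 fell, with sums of 104 and 99.5 in Undiff and 158 and 199 in Day4. Among 5 blood genes 3 rose and 1 fell, with sums going from 4.39 and 4.21 to 115 and 93.3 CPM. The 1 that fell, Ptprc, had raw counts of 2 and 5 in Undiff and 0 and 0 in Day4. Under the 2-fold rule of the next paragraph, 2 neuron genes rose and 4 fell, and 3 blood genes rose and 0 fell. The part of these cell types in the values of the subunit genes was not tested.

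More of the subunit genes rose than fell between Undiff and Day4. With a change of at least 2-fold, an adjusted p of at most 0.05 and a mean normalised count of at least 5, 12 of the 40 genes rose and 2 fell (edgeR quasi-likelihood test, Benjamini-Hochberg adjustment over 19891 genes). The same rule called 22.2% of all tested genes higher and 20.6% lower, against 30.0% and 5.0% of the subunit genes. Among the 16472 genes with a mean of at least 5, which 39 of the 40 reached, these shares were 26.8% and 24.9%, so the share of rising subunits lay near that of expressed genes. On the adjusted p alone 25 subunit genes rose, 10 fell and 5 did not pass, where 37.9% of all tested genes rose and 37.7% fell, and among expressed genes 44.3% and 42.5%. In 27 genes both Day4 libraries lay above both Undiff libraries and in 12, with Actl6b among them, both lay below, while 42.7% of all tested genes separated in each direction and, among expressed genes, 47.9% and 45.8%. The median log2 fold change was 0.49 over the 39 genes at a mean of at least 5 and 0.03 over all such genes. The median size of the change was 0.70 for the subunits and 1.07 for these genes. Over the 11363 genes whose mean count lay within the range of those 39, the median log2 fold change was 0.12, its median size 0.84, and 25.3% rose and 17.9% fell by at least 2-fold. In bulk RNA, fewer cells of a type and less RNA per cell cannot be told apart.

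By complex, 10 BAF genes (35.7%) rose by at least 2-fold and none fell, while in NuRD 2 rose and 2 fell (16.7% each). Among expressed genes these shares were 26.8% and 24.9%. On the adjusted p alone, BAF had 18 rising and 5 falling genes of 28 (64.3% and 17.9%), and NuRD had 7 and 5 of 12 (58.3% and 41.7%). Expressed genes had 44.3% and 42.5%. The 2 complexes were not tested against each other.

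**Figure D1:**
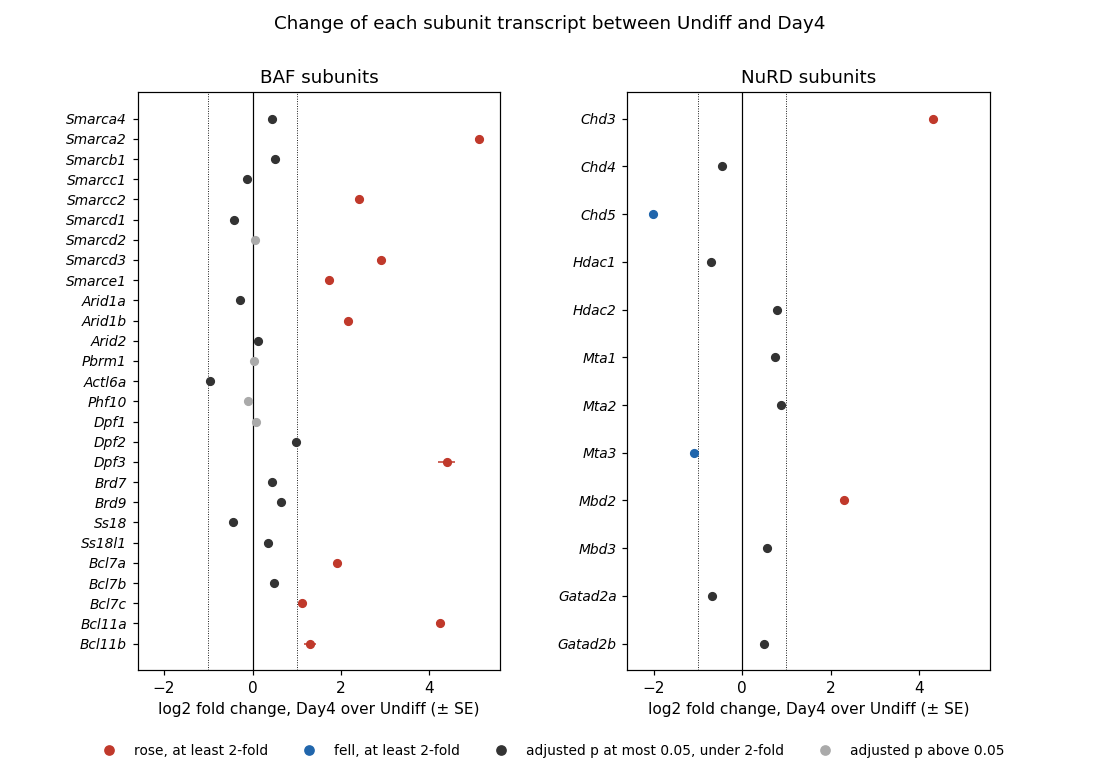
Log2 fold change of each subunit transcript, Day4 over Undiff, with its standard error, for the BAF genes (left) and NuRD genes (right). Dotted lines mark a 2-fold change and colours give the call. Actl6b, with 1 to 3 counts per library, is not drawn. The rising genes reach 5.12 (Smarca2) and the falling genes -2.02 (Chd5).

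Promoters of 4 subunit genes are shown here as examples of sequence context. Among them are Dpf3 (log2 fold change 4.39) and Chd5 (-2.02), the gene that fell most. The window of Smarca2, the gene that changed most, overlapped an annotated exon, and Chd3 had no window. Each line holds the 150 bases upstream of the RefSeq start on the strand of the gene (GRCm38.p6), with CpG dinucleotides in capitals. Smarcc2 (chr10:128459086-128459235, plus strand) and Dpf3 (chr12:83487737-83487886, minus strand) rose. Chd5 (chr4:152338501-152338650, plus strand) fell, and Chd4 (chr6:125095831-125095980, plus strand) is the paralogue it is compared with. None of these windows overlapped an annotated exon of its gene.

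Smarcc2: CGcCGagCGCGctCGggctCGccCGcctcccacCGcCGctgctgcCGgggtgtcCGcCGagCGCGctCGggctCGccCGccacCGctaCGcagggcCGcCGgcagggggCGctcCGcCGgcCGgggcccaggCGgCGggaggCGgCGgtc
Dpf3: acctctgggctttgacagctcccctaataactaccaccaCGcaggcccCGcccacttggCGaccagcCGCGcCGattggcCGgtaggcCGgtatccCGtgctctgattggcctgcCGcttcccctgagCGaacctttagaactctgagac
Chd5: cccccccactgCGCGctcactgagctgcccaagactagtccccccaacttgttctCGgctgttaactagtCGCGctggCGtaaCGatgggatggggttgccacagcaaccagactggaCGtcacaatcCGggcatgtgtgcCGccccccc
Chd4: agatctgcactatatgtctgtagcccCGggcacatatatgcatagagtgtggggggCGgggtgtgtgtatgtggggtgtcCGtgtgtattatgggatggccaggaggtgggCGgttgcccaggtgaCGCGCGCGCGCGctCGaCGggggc

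The Smarcc2 window held 29 CpG dinucleotides, against 11 for Dpf3, 10 for Chd5 and 12 for Chd4. Over the 250 bases upstream, the 32 subunit promoters matched in RefSeq had a median of 21.5 CpG and 66.0% G and C, where all 27025 promoters had medians of 6 and 52.0%. The 27025 promoters were taken without regard to expression, and shares for expressed genes were not computed. For Smarcd1, Smarcd2, Bcl7c and Bcl11b, the 150 bases nearest the start lay wholly in annotated exons of the gene. Other subunit windows lay partly in such exons, by 135 bases for Arid1b and 110 for Smarca2, for example. On either strand, 27 of the 32 held GGGCGG, the core of the GC box bound by Sp factors, as did 33.0% of all promoters. CCAAT, the letters of the CCAAT box, was in 8 of the 32 and in 34.5% of all. TATAA was in 2 and in 23.5% of all, and AGGTCA, the half-site that RA receptors recognise in pairs, was in 1 and in 13.8% of all. None of these motifs holds another, and they are letter matches only, with no binding measured.

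Among the BAF ATPases, Smarca2 rose far more than Smarca4. These are the paralogous motors, of which a complex holds only 1. Smarca2 (chr19:26605050-26778322) had normalised counts of 98.0 and 81.4 in Undiff, against 3131 and 3154 in Day4. Both Day4 libraries stood far above both Undiff libraries, a 34.8-fold rise (log2 fold change 5.12, SE 0.08, edgeR adjusted p = 1.1e-14), the largest among the 40 genes. Smarca4 had 10191 and 10765 in Undiff and 14137 and 14323 in Day4, a log2 change of 0.44. Scaled by exonic length, Smarca4 stayed the more abundant transcript, and Smarca2 made up 0.39% ± 0.07 (SD, n = 2) of the ATPase transcripts in Undiff and 9.11% ± 0.03 in Day4. In raw counts, without length scaling, the Smarca2 share was 0.85% in Undiff and 18.1% in Day4.

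The core scaffold subunits Smarcc1 and Smarcc2 pair with each other or with themselves at the base of the complex. Smarcc2 (chr10:128459248-128490482) went from normalised counts of 1393 and 1413 to 7360 and 7460. Its levels did not overlap between states, and it rose 5.28-fold (log2 fold change 2.40, SE 0.05, edgeR adjusted p = 4.8e-14). Smarcc1 had 15070 and 16015 in Undiff and 13983 and 14382 in Day4, a log2 change of -0.13 with an edgeR adjusted p of 0.012 that passed 0.05 in 9 of 12 alternative analyses. The share of Smarcc2 in the pair rose from 11.3% ± 0.33 to 42.4% per length, and the summed level of both was 1.41 times as high in Day4.

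Smarcd1, Smarcd2 and Smarcd3 encode alternative subunits that link BAF to transcription factors, and Smarcd3 is known from heart and muscle. Smarcd3 (chr5:24590818-24624411) had 218 and 221 normalised counts in Undiff and 1649 and 1621 in Day4. The groups stood apart, with a 7.44-fold rise (log2 fold change 2.90, SE 0.07, edgeR adjusted p = 5.5e-13). Of its exonic bases, 48.2% overlap Chpf2 on the opposite strand, and the study's methods name strand-specific gene counting for the long-read Direct RNA libraries only, so reads of the 2 genes cannot be told apart there and its count is uncertain. Smarcd1 fell by 0.42 on the log2 scale and Smarcd2 did not pass the test (0.05). Their summed level per length was 0.96 times that of Undiff, with Smarcd3 going from 1.55% of it to 12.3% and 11.8% in the Day4 libraries, and Smarcd1 from 61.2% to 47.8%.

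Smarce1 and Smarcb1 are core subunits without a paralogue in the list. Smarce1 (chr11:99209047-99231017), a DNA-binding HMG box protein, had 4379 and 4446 normalised counts in Undiff and 14568 and 14679 in Day4. It rose 3.31-fold, with no overlap (log2 fold change 1.73, SE 0.04, edgeR adjusted p = 2.4e-13). Of the 100-base windows of its transcripts, 11.0% were found also in other genes, most in Gm8494. The study counted uniquely mapped fragments, so reads from these windows may be missing and the count of Smarce1 is uncertain. Smarcb1 rose by 0.51 on the log2 scale.

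**Figure D2:**
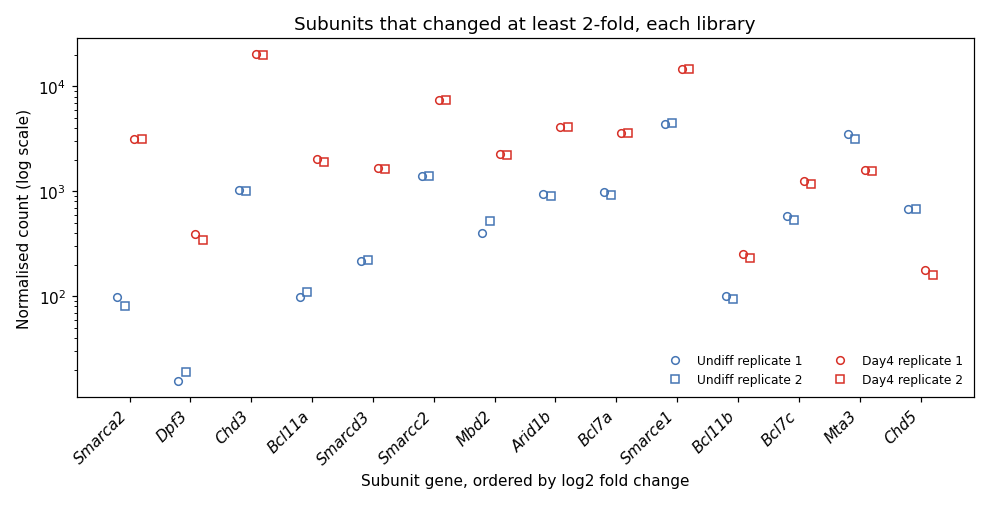
Normalised count of each of the 14 subunit genes that changed at least 2-fold, on a log axis, in every library. Circles are replicate 1 and squares replicate 2, blue for Undiff and red for Day4. In each gene the Day4 points lie on 1 side of the Undiff points, above in 12 genes and below in Mta3 and Chd5.

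The ARID subunits define which BAF form is built. Arid1a and Arid1b are exclusive subunits of canonical BAF, while Arid2, with Pbrm1, Phf10 and Brd7, marks the PBAF form, and Brd9 marks the non-canonical form. Arid1b (chr17:4994332-5347656) went from 949 and 897 normalised counts to 4141 in both Day4 libraries. This 4.48-fold rise (log2 fold change 2.16, SE 0.05, edgeR adjusted p = 3.9e-13) came with a fall of Arid1a by 0.27 on the log2 scale, from 11562 and 12853 to 9835 and 10340. Arid1b went from 6.47% ± 0.69 to 27.2% of the pair per length. The summed pair level was 1.06 times that of Undiff.

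The PBAF genes changed by less than 2-fold. Arid2 had 6012 and 5772 normalised counts in Undiff and 6267 and 6528 in Day4, a log2 change of 0.12 (edgeR adjusted p = 0.027) that missed the threshold in 7 of 12 alternative analyses. Neither Pbrm1 (0.04) nor Phf10 (-0.10) passed the test, and 9.57% of the exonic bases of Phf10 overlap 1600012H06Rik on the opposite strand. Brd7 rose by 0.43 and Brd9 by 0.65 on the log2 scale. Brd9 had 981 and 1054 in Undiff and 1655 and 1533 in Day4, and its share of the Brd7 and Brd9 pair was 12.7% ± 0.45 in Undiff and 14.4% in Day4.

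The genes of the progenitor to neuron subunit exchange did not move as 1 block. Actl6a, the actin-related subunit of progenitor BAF, fell by 0.95 on the log2 scale, from 9053 and 9036 normalised counts to 4596 and 4759. Its neuronal paralogue Actl6b had raw counts of 2 and 3 in Undiff and 1 and 1 in Day4. These lie at or below 3 counts, taken here as the limit of detection, so no fold change is given and Actl6b was not detectable above this depth in either state. Of the exonic bases of Actl6a, 11.6% overlap Mrpl47 on the opposite strand.

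Of the double PHD finger genes, which encode histone-reading subunits, the neuronal member Dpf3 rose and the neuronal member Dpf1 did not pass the test. Dpf3 (chr12:83213745-83487716) had 15.6 and 19.1 normalised counts in Undiff and 394 and 342 in Day4. It rose 21.0-fold, with no overlap between states (log2 fold change 4.39, SE 0.19, edgeR adjusted p = 1.2e-10). Dpf1 had 597 and 631 in Undiff and 653 and 636 in Day4, a log2 change of 0.07. The ubiquitous Dpf2 rose by 0.99, just under the 2-fold limit, from 3482 and 3414 to 6736 and 6929. In the set of these genes with Phf10, Dpf2 went from 40.2% to 55.7% per length, Phf10 from 50.9% to 33.3% and Dpf3 from 0.31% to 4.62%. As Phf10 marks PBAF, this set spans different BAF forms.

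Ss18, the progenitor subunit of the last exchanged pair, fell by 0.43 on the log2 scale, from 5351 and 5584 normalised counts to 3994 and 4116. Ss18l1, its neuronal paralogue, rose by 0.35, from 430 and 373 to 541 and 494. Its share per length was 13.8% ± 1.5 in Undiff and 21.7% in Day4. The neuron markers moved beside these genes as given above, where Dcx rose by 9.15 and Tubb3 fell by 3.82 on the log2 scale. Their part in these values was not tested.

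The 3 Bcl7 genes, which encode small accessory BAF subunits, rose together. Bcl7a (chr5:123343834-123374992) went from 985 and 926 normalised counts to 3615 and 3620, and Bcl7c (chr7:127661456-127708933) from 587 and 529 to 1255 and 1172. Bcl7a rose 3.78-fold (log2 fold change 1.92, SE 0.05, edgeR adjusted p = 1.4e-12) and Bcl7c rose 2.17-fold (log2 fold change 1.11, SE 0.07, edgeR adjusted p = 8.3e-09). Bcl7b rose by 0.49, under the 2-fold limit. The summed level of the 3 genes per length was 2.07 times that of Undiff, with Bcl7a going from 22.5% to 41.1% of it.

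The zinc finger proteins Bcl11a and Bcl11b, transcription factors that also join BAF, were at 0.21 and 0.32 FPKM in Undiff. Bcl11a (chr11:24078056-24174123) had 99.0 and 110 normalised counts in Undiff and 2051 and 1921 in Day4, a 19.0-fold rise (log2 fold change 4.25, SE 0.09, edgeR adjusted p = 9.2e-14). Bcl11b (chr12:107910403-108003602) had 100 and 94.5 in Undiff and 252 and 233 in Day4, a 2.47-fold rise (log2 fold change 1.31, SE 0.13, edgeR adjusted p = 7.9e-07). Per length, Bcl11a went from 39.8% ± 2.8 to 83.5% of the pair, and the pair sum was 9.06 times as high.

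In NuRD the main shift lay among the ATPases. Chd4 is the usual motor of NuRD in ESCs, Chd3 is its close paralogue, and Chd5 is known mainly from neurons. Chd3 (chr11:69343273-69369406) had 1022 and 1017 normalised counts in Undiff and 20239 and 20042 in Day4. All Day4 values stood far above Undiff, a 19.8-fold rise (log2 fold change 4.30, SE 0.05, edgeR adjusted p = 4.0e-16). Chd4 fell by 0.46, from 28004 and 31010 to 21109 and 21931. Chd5 (chr4:152338651-152390194) went from 683 and 677 to 178 and 159, a 4.07-fold fall (log2 fold change -2.02, SE 0.09, edgeR adjusted p = 1.7e-10). Per length, Chd3 went from 3.13% ± 0.22 to 46.9% of the ATPase transcripts and Chd4 from 95.0% to 52.8%. Their summed level was 1.31 times as high in Day4.

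The deacetylases Hdac1 and Hdac2 moved in opposite directions. Hdac1 fell by 0.70, from 11253 and 11463 normalised counts to 7019 and 6957, and Hdac2 rose by 0.79, from 5777 and 6316 to 10449 and 10521. Hdac2 went from 29.1% ± 1.0 to 53.6% of the pair per length, and so passed Hdac1, while the pair sum was 0.94 times that of Undiff. Of the 100-base windows of Hdac1, 24.9% were found in other genes, most in Gm10093, so its level is uncertain. Hdac1 and Hdac2 also serve other corepressor complexes.

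Mta1, Mta2 and Mta3 encode the scaffold that recruits the deacetylases. Mta3 (chr17:83706163-83821516) fell from 3481 and 3172 normalised counts to 1600 and 1550, a 2.12-fold fall (log2 fold change -1.08, SE 0.06, edgeR adjusted p = 7.6e-10). Mta1 rose by 0.73 and Mta2 by 0.88 on the log2 scale, with Mta2 going from 5491 and 5649 to 10211 and 10352. Mta3 went from 18.9% to 5.92% of the set per length, and the set sum was 1.51 times as high.

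Mbd2 and Mbd3 never share a NuRD complex, and Mbd2 is the partner that binds methylated DNA. Mbd2 had 399 and 517 normalised counts in Undiff and 2270 and 2220 in Day4. Relative to their mean, the Undiff replicates stood further apart than those of any other gene that rose by at least 2-fold, but the states did not overlap, and Mbd2 rose 4.93-fold (log2 fold change 2.30, SE 0.09, edgeR adjusted p = 2.3e-11). Mbd3 rose by 0.55. Mbd2 went from 6.08% ± 1.1 to 17.8% of the pair per length. Of the Gatad2 genes, which link the Mbd protein to the ATPase, Gatad2a fell by 0.69 on the log2 scale and Gatad2b rose by 0.48. Gatad2b had 1132 and 1179 in Undiff and 1532 and 1685 in Day4, and went from 5.38% to 11.3% of the pair per length.

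Across the 15 sets, the share of 19 genes changed by at least 10 percentage points per length. Shares within a set are tied, so in a pair a single shift counts for both genes. Hdac1 (-24.5 points) and Hdac2 (24.5 points) are an example.

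**Figure D3:**
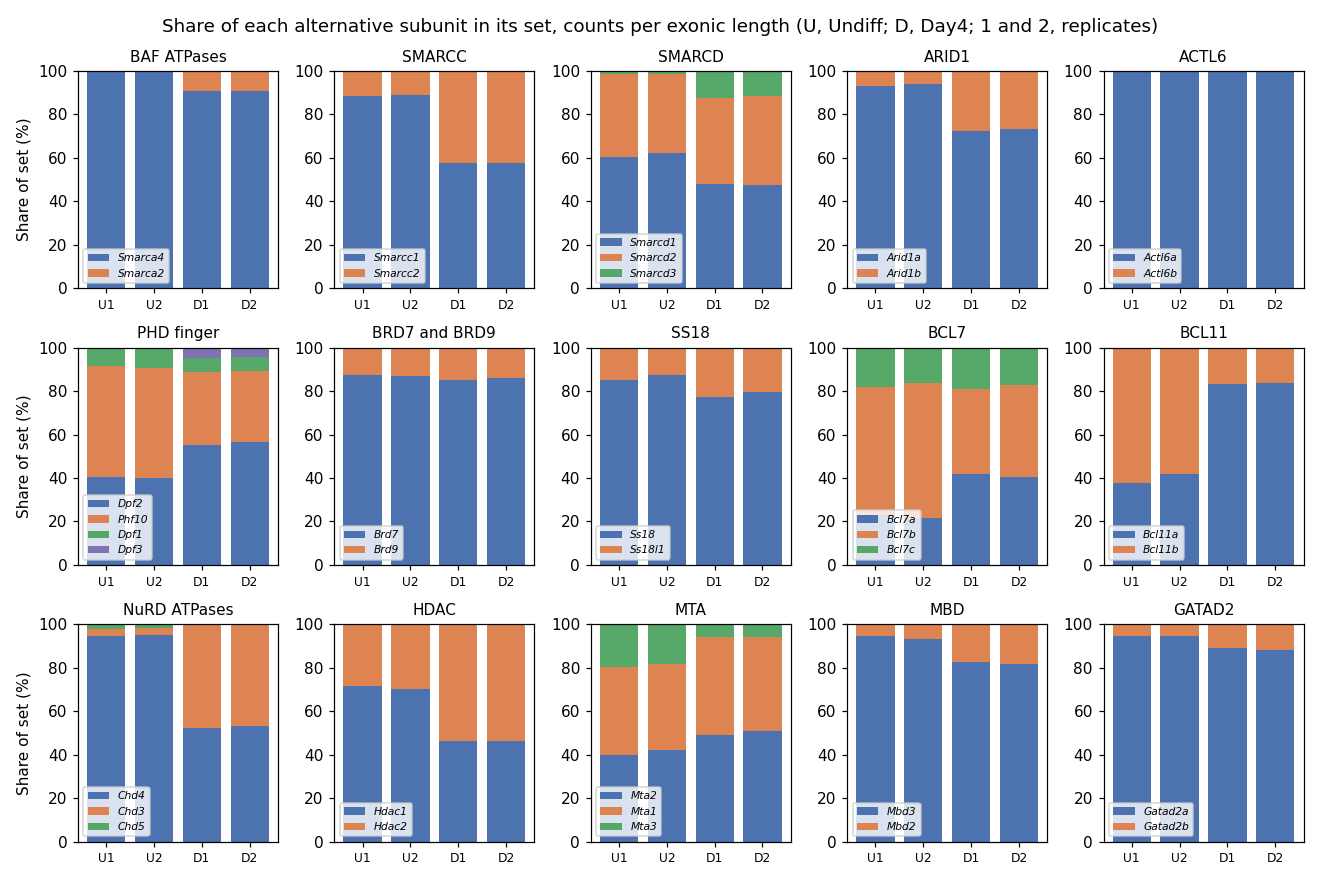
Share of each gene in its set of related subunits (percent, counts per exonic length) in each library, U1 and U2 for Undiff and D1 and D2 for Day4. The BRD7 and BRD9 set and the PHD finger set, which holds Phf10, span different BAF forms. The shares of Chd3, Hdac2 and Smarcc2 are larger in both Day4 libraries than in both Undiff libraries, and the ACTL6 bars are filled by Actl6a in all 4.

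Ratios between genes of a set within a library do not depend on how the libraries were scaled. Of 20 such ratios, 14 changed by at least 1 on the log2 scale and 6 by less, and in all 20 the Undiff and Day4 libraries did not overlap. Single genes often separated too, 47.9% of expressed genes higher and 45.8% lower, and ratios of other gene pairs were not examined. With 2 libraries against 2, an exact permutation test of such a ratio cannot give a two-sided p below 0.333. The log2 ratio of Chd3 to Chd4 was -4.78 and -4.93 in Undiff and -0.06 and -0.13 in Day4, a change of 4.76 (SE 0.07). That of Smarca2 to Smarca4 changed by 4.70 (SE 0.09), from -6.70 and -7.05 to -2.17 and -2.18. These ratios are of raw counts and are read for their change only.

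Other ratios that moved towards the first-named gene were Dpf3 to Dpf2 (3.42), Smarcd3 to Smarcd1 (3.31), Smarcc2 to Smarcc1 (2.53), Arid1b to Arid1a (2.44) and Mbd2 to Mbd3 (1.75). The Hdac2 to Hdac1 ratio changed by 1.5, from -0.96 and -0.86 to 0.57 and 0.60, and Gatad2b to Gatad2a changed by 1.17. Ratios that moved the other way were Bcl11b to Bcl11a (-2.93), Mta3 to Mta2 (-1.96), Chd5 to Chd4 (-1.56), Bcl7b to Bcl7a (-1.44) and Phf10 to Dpf2 (-1.08). Those under 1 were Dpf1 to Dpf2 (-0.92), Bcl7c to Bcl7a (-0.80), Ss18l1 to Ss18 (0.80), Smarcd2 to Smarcd1 (0.47), Brd9 to Brd7 (0.21) and Mta1 to Mta2 (-0.15).

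Per exonic length, the highest level in each state was that of a NuRD gene. In Undiff the highest were Chd4 at 98.3 ± 7.1 FPKM, fragments per kb of exon at a common library size (SD, n = 2), Hdac1 at 88.1 ± 1.1, Actl6a at 62.2 ± 0.08 and Mbd3 at 58.8 ± 0.75. In Day4 they were Mbd3 at 86.4 ± 3.6, Chd4 at 71.7 ± 1.9, Mta2 at 67.1 ± 0.62 and Chd3 at 63.7 ± 0.47. Chd3 was 27th of the 40 genes in Undiff and 4th in Day4, and Actl6a was 3rd and then 14th. The lowest genes apart from Actl6b were Dpf3 and Smarca2 in Undiff, at 0.11 and 0.17, and Chd5 and Bcl11b in Day4, at 0.47 and 0.80.

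**Figure D4:**
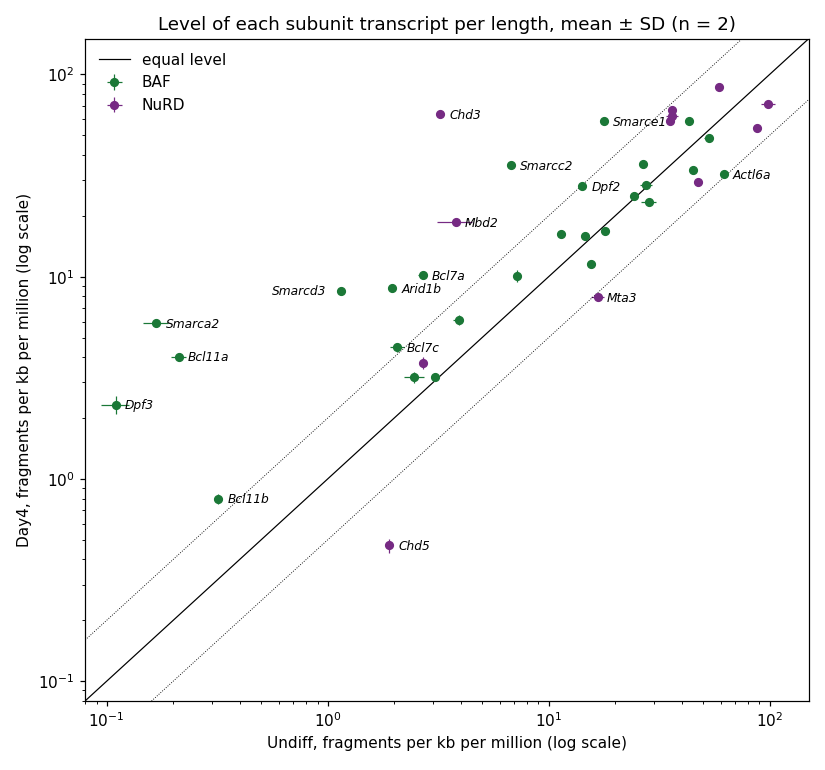
Mean level of each subunit transcript per exonic length in Undiff (x axis) and Day4 (y axis), in FPKM on log axes, with SD (n = 2). The solid line marks equal level and the dotted lines a 2-fold difference. Genes above the upper dotted line include Chd3 and Smarcc2, and Chd5 and Mta3 lie below the lower one. Actl6b lies outside the axes.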

How the data were processed

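The members and gene lists were chosen with earlier results of these data known. Per the labels and methods, the authors made paired-end Illumina TruSeq libraries, used cutadapt for trimming and STAR 2.4.2a for alignment to mm10, and deposited raw counts per gene from HTSeq. The methods name strand-specific gene counting for Direct RNA libraries only, while the labels name both an unstranded and a strand-specific TruSeq kit. From these counts, every gene with at least 1 count (19891) was fitted in edgeR 4.0.16 (R 4.3.3) with TMM scaling and a quasi-likelihood test of state, with Benjamini-Hochberg adjustment. The fit was tested on simulated data. Lines that name no gene stayed out, and reads on no annotated feature were 12.1% and 13.2% of all in Undiff and 7.5% and 7.74% in Day4.

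Normalised counts are counts divided by TMM-scaled totals and put on their mean depth. Genes were matched by symbol to GENCODE (GRCm38) for coordinates and exonic length, and levels per length are FPKM on the TMM-scaled total. Exonic length joins the exons of all GENCODE transcripts of a gene, so it can exceed that of any single transcript. The study counted reads on a different annotation, from iGenomes UCSC. Levels and shares per length depend on this choice of length. The study reported exons of Mbd3, Mta1 and Smarcb1 used differently between the states, which a single length per gene does not follow. SE of a ratio combines the SEs of both genes. A count of 3 was the limit of detection. Promoter windows came from RefSeq. Arid2, Bcl7a, Chd3, Hdac1, Mta3, Smarce1 and the chromosome 18 genes Ss18 and Mbd2 had no window used here. All 40 members are named, with full statistics for those past the fold and FDR rule. Alternatives were DESeq2 1.42.0, other scalings and filters, thinning, a replicate block, leaving out each library, and, chosen after seeing the data, the earlier mode of the quasi-likelihood fit. Replicates of a group differed by more than sampling noise (chi-square per degree of freedom 5.71 and 3.07). With 2 libraries a group, precision rests on the spread shared across genes. The result of 1 marker list is not reported here.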

Additional observations from a re-analysis of the deposited data

How the results depend on the processing

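Every count of called genes stayed within 1.5 times its value, and no fold change of a called gene turned direction, in the alternatives run. With at least a 2-fold change, 12 to 13 genes rose and 2 to 3 fell, and on the adjusted p alone 24 to 26 rose and 9 to 11 fell. The thirteenth was Dpf2, and the third that fell was Actl6a. Lost calls were Smarcc1 (library totals, without Undiff replicate 2, without Day4 replicate 1, log2 fold change -0.13 in the main analysis and -0.065 to -0.11 in these) and Arid2 (0.06 to 0.09 in 7 alternatives). Pbrm1 passed with library totals (0.11), and Phf10 with DESeq2 size factors (-0.13), a stricter count filter or thinning. Smarcd2 (-0.02 to 0.11) and Pbrm1 (-0.01 to 0.11), not called, took both signs. The cause was not tested. Without length scaling, 24 shares in place of 19 changed by at least 10 percentage points. Replicates with the same number showed no common deviation across genes (correlation of deviations -0.01), which cannot show whether they were handled together. With the replicate number as a block, 12 genes rose and 2 fell by at least 2-fold. Depth limits Actl6b, and the median log2 fold change of expressed genes ranged from -0.01 to 0.10 over the scalings.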

Other observations

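Of 40 other genes of remodelling complexes that are not among the subunits above, 10 rose and 24 fell on the adjusted p alone, beside 37.9% and 37.7% of all tested genes, and 4 rose and 10 fell by at least 2-fold, beside 22.2% and 20.6% of all tested genes. Their median log2 fold change was -0.61. Sall4, a pluripotency factor that binds NuRD, went from 5698 and 6242 normalised counts in Undiff to 159 and 175 in Day4, a log2 fold change of -5.15 (SE 0.08). Cecr2, an ISWI-family partner, fell by 2.69 and Hells, a remodeller tied to DNA methylation, fell by 2.41. Smarca1, an ISWI ATPase, rose by 2.37, from 846 and 828 to 4278 and 4389. Gltscr1, a subunit of the BAF form that holds Brd9, rose by 2.15, from 215 and 266 to 1067 and 1050, while its paralogue Gltscr1l fell by 1.10, from 2312 and 2541 to 1118 and 1142. Gltscr1l lies outside the 5 largest changes and was named after its values were seen. Rbbp4 and Rbbp7, histone-binding NuRD subunits, had log2 fold changes of -0.05 and 0.22.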
